A study of Mus musculus with 12 samples.

Results

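The genes described here encode the machinery that carries newly made proteins from the endoplasmic reticulum (ER) through the Golgi to the cell surface and endosomes: coat proteins, cargo receptors, tethers and SNAREs. They were chosen by gene symbol (names beginning with Sec and a digit, Trappc, Tmed, Stx, Vamp or Bet1, the lettered COPI subunits, Ykt6, Gosr1 and Gosr2, with Sec22a left out), and 90 of the 20244 genes listed in the series met that rule. Of these, 87 were listed in both tables and 3 (Sec14l3, Sec14l4 and Sec31b) in the immunoprecipitation table alone. Mouse 2-cell embryos were studied in 2 experiments with 2 libraries (A and B) in each group. In the first, control embryos (genotype label WT) were compared with embryos in which Eif1ad3 was targeted (knockdown, genotype label Eif1ad3_KD), all from CF1 mice. The series' design text has 1-cell embryos receiving mRNA for RfxCas13d, an RNA-cutting enzyme, alone in controls and together with a guide RNA in knockdown. The sample protocol instead has oocytes receiving control or antisense morpholino oligos with Cas13d protein. In the second, zygotes received mRNA for His-tagged Eif1ad3 (genotype label Eif1ad3_OE, 200 ng/uL), and RNA was recovered from 2-cell lysates of 200 cells per replicate with an anti-His antibody (His) or with IgG (IgG). Both bead groups carry the label Eif1ad3_OE, so the IgG libraries also come from embryos with the tagged protein. No source says whether libraries A and B came from separate collections, so p-values measure only the spread between these libraries. Each control or knockdown library is a pool of whole embryos, in which fewer cells of a type and less RNA per cell cannot be told apart. The His and IgG libraries hold RNA recovered from lysates on beads, so their levels are not levels in the embryo.

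Secretory proteins enter the ER through the Sec61 channel and leave it in vesicles coated with COPII (Sec23/Sec24 inside, Sec13/Sec31 outside). COPI-coated vesicles carry material back from the Golgi. TRAPP complexes tether vesicles and activate Rab GTPases, p24 proteins (Tmed) sort cargo, and SNAREs (syntaxins, VAMPs and others) fuse the vesicle with its target. The 2-cell embryo inherits transcripts of this machinery from the oocyte and makes others anew as its genome becomes active. By role, the 90 genes comprised 11 of the COPII coat, 8 of the COPI coat, 11 p24 cargo receptors, 8 of translocation into the ER, 16 TRAPP genes, 15 syntaxins, 14 VAMPs and other SNAREs, and 7 others. The last group held 5 Sec14-like lipid-binding genes, Sec23ip, whose product binds Sec23, and Sec1, a fucosyltransferase gene that met the rule only through its symbol.

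Values are in CPM, a gene's reads scaled to a common total per library. The knockdown experiment's libraries held between 18173916 and 27902514 reads and the immunoprecipitation libraries between 4678563 and 8364126, so that a floor of 3 reads was 0.108 to 0.165 CPM and 0.359 to 0.641 CPM. These floors cover counting error only. The targeted gene, Eif1ad3, was at 839 and 663 CPM in controls A and B and at 277 and 377 CPM in knockdown A and B (log2 difference -1.21, SE 0.33, adjusted p 0.859 by limma). Of the 6 genes listed as 2-cell markers all were read in every control and knockdown library, with summed levels of 8426 to 11067 CPM in controls and 7636 to 9300 CPM in knockdown. Most of that sum was Dppa3, and the other 5 summed to 1980 and 2033 CPM in controls A and B and to 1497 and 1610 CPM in knockdown A and B, below both controls. Of 8 cumulus and granulosa cell markers 4 were listed in the knockdown table, at a sum of 5.64 and 9.04 CPM in controls A and B, 13.01 CPM in knockdown A and 1.76 CPM in knockdown B. Of 3 blood markers only Hba-a1 was listed, at 24.6 and 18.7 CPM in controls, 19.9 and 6.77 CPM in knockdown, 52.6 and 64.8 CPM in His and 0 in both IgG libraries. The 6 oocyte markers summed to 1724 and 1484 CPM in controls A and B, to 3789 CPM in knockdown A and to 1363 CPM in knockdown B.

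The first comparison asked whether these transcripts changed in embryos in which Eif1ad3 was targeted. No secretory pathway gene passed the threshold, an adjusted p under 0.05 in limma on log2(CPM + 1). Among transcripts above controls, the smallest p belonged to those of the tether subunit Trappc2, the channel subunit Sec61g, the signal peptidase subunit Sec11a and the SNARE Bet1, and among those below, to the ER exit site organizer Sec16a and the core TRAPP subunit Trappc4. Of the 87 genes listed, 80 were at 1 CPM or more in at least 2 libraries and were tested. The 7 left untested were Bet1l, Sec14l2, Sec14l5, Stx11, Trappc14, Vamp2 and Vamp5. Among all 13332 genes tested the share called was 0% as well, and an unadjusted p under 0.05 was reached by 4 of the 80 genes (5%) against 5.45% of all genes tested. DESeq2 on the recovered reads called 0 of the 80 and edgeR called 0.

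Trappc2, a small core subunit of the TRAPP tether known as sedlin, was at 53.5 and 38.9 CPM in controls A and B and at 133 and 131 CPM in knockdown A and B. Both knockdown libraries lay above both controls, with a log2 difference of 1.51 (SE 0.36), and the adjusted p by limma was 0.859. In RefSeq (GRCm38.p6) Trappc2 overlaps Ofd1, and no source says whether reads were counted by strand. Ofd1 itself was at 62.9 and 51.7 CPM in controls and at 41.4 and 42.9 CPM in knockdown A and B, below the controls where Trappc2 was above.

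Sec61g, the smallest subunit of the translocation channel, was at 23.1 and 22.4 CPM in controls A and B and at 59.4 and 50.0 CPM in knockdown A and B (log2 difference 1.22, SE 0.40). Sec11a, a catalytic subunit of the signal peptidase that cleaves proteins entering the ER, was at 95.2 and 103 CPM in controls and at 216 and 167 CPM in knockdown (log2 difference 0.94, SE 0.34). For both genes the groups did not overlap, and for both the adjusted p by limma was 0.859. The other 6 genes of translocation had differences from -0.03 for the main channel subunit Sec61a1 to 0.99 for Sec11c, the second catalytic signal peptidase subunit. Sec11c was at 9.52 and 6.87 CPM in controls, at 28.3 CPM in knockdown A and at 10.1 CPM in knockdown B.

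Among the SNAREs, Bet1, which acts in fusion of ER-derived vesicles at the Golgi, was at 28.1 and 27.5 CPM in controls A and B and at 48.8 and 80.6 CPM in knockdown A and B (log2 difference 1.15, SE 0.42). Ykt6, a lipid-anchored SNARE, was at 1.92 and 1.73 CPM in controls and at 6.13 and 4.51 CPM in knockdown (1.15, SE 0.55). Vamp4, a SNARE of the trans-Golgi network, was at 14.5 and 20.4 CPM in controls and at 26.6 and 42.9 CPM in knockdown (0.93, SE 0.47). All 3 had both knockdown libraries above both controls and an adjusted p of 0.859 by limma. In the other direction Sec16a was at 81.4 and 85.6 CPM in controls and at 64.2 and 30.6 CPM in knockdown (-0.90, SE 0.44), and Trappc4 was at 109 and 106 CPM in controls and at 80.8 and 66.0 CPM in knockdown (-0.55, SE 0.35). Trappc12, a subunit of the TRAPPIII complex, was at 9.20 and 11.01 CPM against 3.87 and 7.87 CPM, and Stx1a, a plasma membrane syntaxin, at 8.84 and 7.95 CPM against 7.06 and 3.36 CPM. For these 4 genes both knockdown libraries lay below both controls, with adjusted p of 0.859 to 0.897 by limma. For the p24 gene Tmed1 (4.00 and 1.89 CPM against 0.538 and 2.26 CPM) and the COPI subunit Copg1 (31.2 and 44.99 CPM against 44.5 and 13.3 CPM) the groups overlapped.

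**Figure D1:**
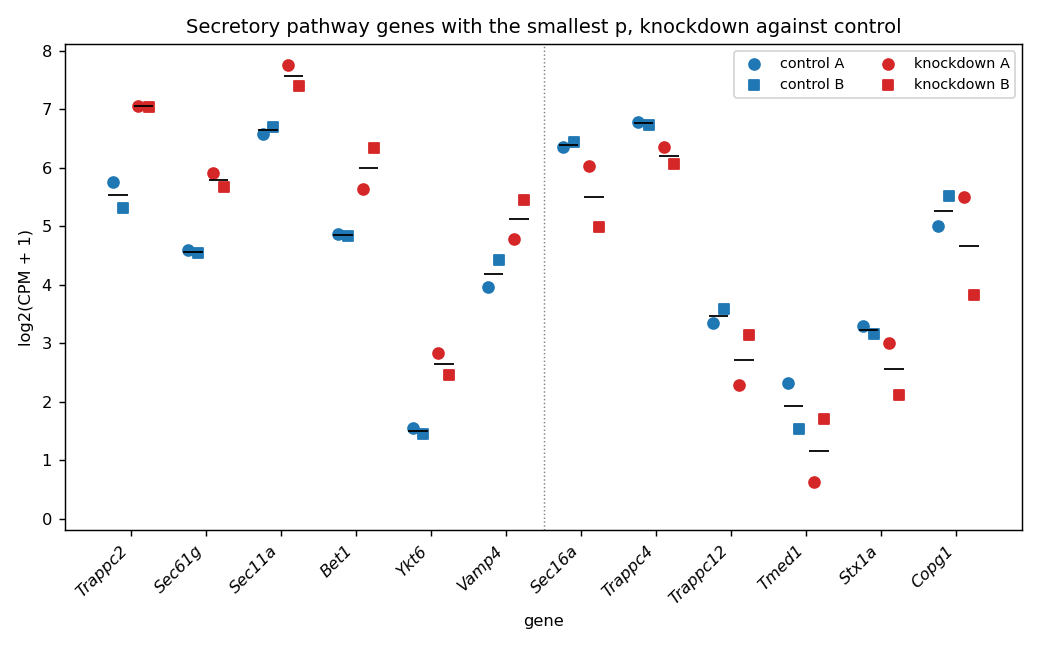
The vertical axis is log2(CPM + 1) in each of the 4 libraries of the knockdown experiment (blue, control; red, knockdown; circles, A; squares, B) for the 6 secretory pathway genes with the smallest p on each side, and black lines are group means. Trappc2, Sec61g, Sec11a, Bet1, Ykt6 and Vamp4 have both knockdown libraries above both controls, and Copg1 has knockdown A and B far apart.

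Over all 87 listed genes, both knockdown libraries lay above both controls in 19 (21.8%, against 18.3% of all listed genes) and below both in 5 (5.75%, against 16.8%). At a control mean of 10 CPM or more the counts were 11 of 56 above (19.6%, against 15.1% of all genes at that level) and 3 of 56 below (5.36%, against 23.8%). The 3 were Sec16a, Trappc4 and Trappc12. More genes had the knockdown libraries on opposite sides of the controls. In 30 of 87 genes (34.5%, against 16.2% of all listed genes) knockdown A was above both controls and knockdown B below both. At a control mean of 10 CPM or more the same held for 22 of 56 (39.3%, against 19.9%). The reverse order was seen in 7 of 87 (8.05%, against 7.35%). The summed level of the 6 oocyte markers was likewise above both controls in knockdown A (3789 CPM) and below both in knockdown B (1363 CPM), and of the single markers Gdf9 and Npm2 had this order. The small sum of the cumulus and granulosa cell markers had it too (13.01 CPM in knockdown A and 1.76 CPM in knockdown B). The summed 2-cell markers without Dppa3 were below both controls in both knockdown libraries. The part of these differences in the counts was not tested.

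The COPI coat had the largest share of any role with knockdown A above and knockdown B below both controls, 5 of 8 genes. That order was found in 34.5% of the 87 secretory pathway genes and 16.2% of all listed genes. Whether any role differs from the others was not tested. In all 8 COPI genes knockdown B was lower than knockdown A, as it was in 57 of 80 secretory pathway genes (71.3%) and in 62.6% of 13268 genes. Copz1, the zeta subunit, was at 254 and 263 CPM in controls A and B, at 480 CPM in knockdown A and at 124 CPM in knockdown B. Cope, the epsilon subunit, was at 26.1 and 21.3 CPM in controls, at 31.1 CPM in knockdown A and at 6.11 CPM in knockdown B. Copb1, the beta subunit, was the COPI gene with both knockdown libraries above both controls (88.4 and 83.2 CPM against 146 and 111 CPM). The median difference of the 8 genes from the control mean was 0.57 in knockdown A and -0.92 in knockdown B on the log2(CPM + 1) scale. Syntaxins had the same order in 7 of 15 genes, among them the Golgi syntaxin Stx5a, at 39.7 and 63.2 CPM in controls, 65.6 CPM in knockdown A and 17.7 CPM in knockdown B. Stx7, a late endosomal syntaxin, did not: it was at 33.5 and 36.5 CPM in controls and at 52.0 and 66.2 CPM in knockdown. The recycling endosome syntaxin Stx12 was at 106 and 76.0 CPM in controls and at 130 and 91.5 CPM in knockdown, where the groups overlapped.

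In the COPII coat the subunits split. Sec13, of the outer cage, was at 106 and 74.2 CPM in controls, at 206 CPM in knockdown A and at 51.2 CPM in knockdown B. Sec23a, of the inner layer, ran the other way, at 71.1 and 54.6 CPM in controls, 49.0 CPM in knockdown A and 118 CPM in knockdown B. Sec24a, a cargo-binding subunit of the inner layer, was at 71.3 and 99.3 CPM in controls and at 78.1 and 125 CPM in knockdown. Of 10 COPII genes listed, 5 had the order of Sec13 and 2, Sec23a and its paralogue Sec23b, that of Sec23a. Of all listed genes 16.2% had the first order and 7.35% the second.

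Among p24 cargo receptors Tmed5 showed the widest gap between the knockdown libraries of those at 10 CPM or more in controls. It was at 274 and 337 CPM in controls A and B, at 180 CPM in knockdown A and at 868 CPM in knockdown B. Tmed10, which with Tmed2 forms the core of p24 complexes, was at 76.6 and 87.4 CPM in controls, 105 CPM in knockdown A and 43.4 CPM in knockdown B. Tmed2 was at 48.4 and 74.5 CPM in controls and at 69.2 and 58.2 CPM in knockdown, within the control range. The TRAPP subunits also differed from each other: Trappc1 was at 80.2 and 64.0 CPM in controls, 107 CPM in knockdown A and 44.7 CPM in knockdown B, whereas Trappc8, a subunit of TRAPPIII, was at 105 and 74.8 CPM in controls, 62.3 CPM in knockdown A and 97.6 CPM in knockdown B. Among the remaining genes Sec23ip kept within a narrow band, at 72.5 and 64.7 CPM in controls and at 61.4 and 68.4 CPM in knockdown, and Sec1 was low in every library, at 0.760 and 3.78 CPM in controls and at 5.38 and 0.275 CPM in knockdown. Sec14l1 was at 12.1 and 15.5 CPM in controls, 28.1 CPM in knockdown A and 7.81 CPM in knockdown B.

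The median log2 difference of the 80 tested genes was 0.08, beside 0.02 for all genes tested, with 45 above 0 and 35 below. Which side of 0 it fell on depended on the library: it was 0.50 without knockdown B and -0.25 without knockdown A. Libraries A and B of the knockdown group were further apart than those of the control group, with a median SD over the 80 genes of 0.75 against 0.30 on the log2 scale (0.49 against 0.24 for all genes tested). Without knockdown A, 7 of the 80 genes passed in limma (Bet1, Tmed5 and Trappc2 higher, Cope, Copz1, Sec16a and Stx5a lower), as did 1250 of all genes. Without knockdown B none of the 80 did, against 76 of all genes. In both cases the lone knockdown library is assumed to vary like the controls.

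**Figure D2:**
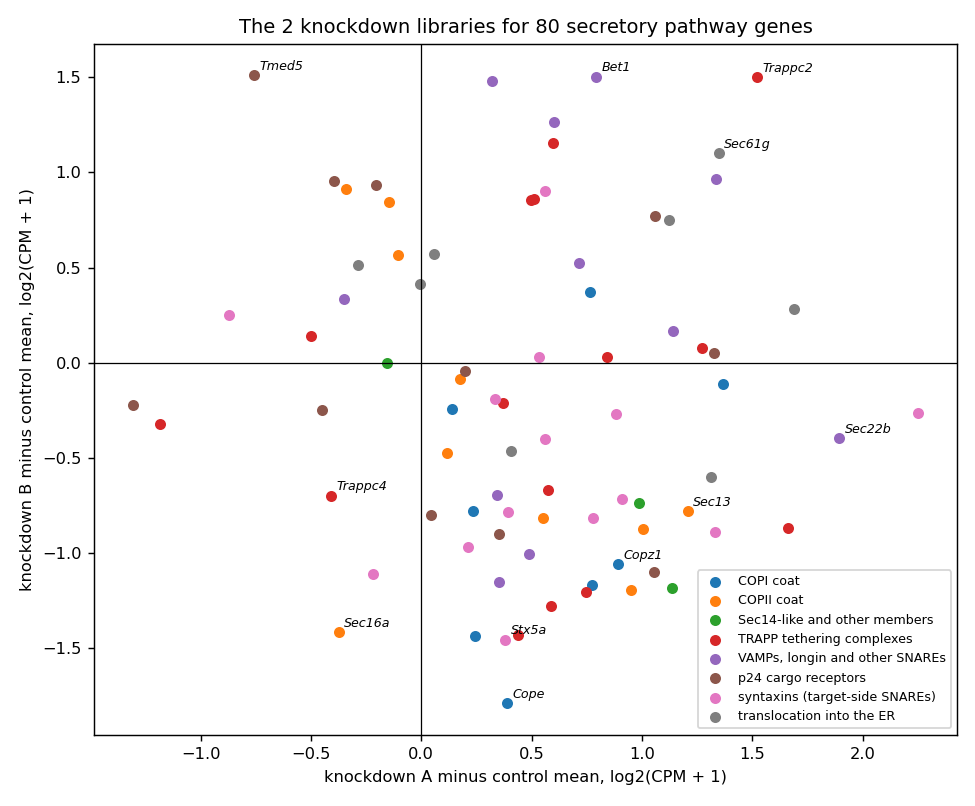
Each point is 1 of the 80 tested secretory pathway genes, coloured by role, with its log2(CPM + 1) difference from the control mean in knockdown A (horizontal axis) and in knockdown B (vertical axis). Many genes lie at the lower right, above controls in A and below in B, including Copz1, Cope and Sec13, Tmed5 lies at the upper left, and Trappc2 and Sec61g at the upper right.

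Other genes of the pathway that do not share these symbols were read from a list of 89 (small GTPases, tethers, SNARE regulators, signal recognition and signal peptidase subunits, clathrin and others). Of 85 tested, none passed in the knockdown comparison in limma, where 8 had an unadjusted p under 0.05, and 0 passed with edgeR and 0 with DESeq2 (9 unadjusted in each). Without knockdown A, 5 passed in limma as higher and 8 as lower, beside 1250 of all 13332 genes in either direction. The smallest p on each side belonged to Spcs1, another signal peptidase subunit (21.0 and 15.5 CPM in controls, 73.3 and 51.6 CPM in knockdown A and B), the SNARE regulator Stxbp2 (0.480 and 1.57 against 5.70 and 4.73 CPM), the Golgi stacking protein Gorasp1 (3.84 and 10.8 against 1.47 and 1.71 CPM) and the tether subunit Cog4 (344 and 402 against 321 and 151 CPM). All 4 had an adjusted p of 0.859 by limma. The order of knockdown A above and knockdown B below both controls was found in 30 of 87 listed genes (34.5%), the share found in the secretory pathway genes.

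The second comparison asked which transcripts were recovered with His-tagged Eif1ad3 above the IgG background. Transcripts of 31 secretory pathway genes were higher in His than in IgG at an adjusted p under 0.05 in limma, and none was lower. Of the 31, 22 had no read in either IgG library, so that they reached the level for testing through the His libraries alone and could only come out higher. The 31 genes came from every role: TRAPP core subunits (Trappc1, Trappc3), syntaxins of several compartments (Stx6, Stx17, Stx4a), SNAREs (Vamp8, Sec22b, Bet1), COPI subunits (Copb1, Cope, Copg1, Copg2) and cargo receptors (Tmed10). Of the 90 listed genes 72 reached the level for testing. Among the 18 that did not were Gosr1, Sec1, Sec14l2, Sec14l3, Sec14l4, Sec14l5, Sec16b, Sec31b, Stx11, Stx16, Stx19, Stx3, Tmed11, Tmed8, Trappc11, Vamp2 and Vamp5. Thus 31 of 72 (43.1%) passed, against 36.6% of all 11232 genes tested. For the higher direction alone the shares were 43.1% and 35.7%, and for the lower direction 0 of 72 and 0.917%. The IgG libraries stood further apart than the His libraries. Across all genes tested the correlation was 0.47 between IgG A and B and 0.90 between His A and B, with median SDs of 0.69 and 0.35 on the log2 scale. Over the 72 secretory pathway genes the median SDs were 0.315 in IgG and 0.285 in His. Genes with no read in either IgG library have no spread there. The median log2 difference was 2.59 for the 72 genes and 2.01 for all genes tested. With transcripts that had no read in either IgG library set to their lower bound, the medians were 2.77 and 2.12. These shares and medians of the secretory pathway genes lie near those of all genes. Quantile normalization, which moved the median of all genes by -2.09, brought the median of the 72 genes to 0.16 and left 0 of them called (13 at an unadjusted p under 0.05), edgeR on the recovered reads called 0 (33 unadjusted, smallest adjusted p 0.0547), and DESeq2 called 37 (34 higher and 3 lower), beside 5513 of all 11232 genes. Without IgG A 52 were called (43 higher and 9 lower), beside 7229 of all genes, and without IgG B 48 (41 higher and 7 lower), beside 7301. In these fits the lone IgG library is assumed to vary like the His libraries. The wider spread of IgG over all genes tested does not bear that out, so these counts are not calls of the same weight.

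The 22 called genes with no IgG read were 71.0% of the genes called, against 67.2% of all genes called higher. Over all 90 listed genes, 40 had no read in either IgG library (44.4%, against 52.6% of all listed genes). At least 10 CPM in both His libraries was reached by 44 of 90 (48.9%, against 33.7%). Of those 44, 11 had no read in either IgG library (25%, against 16.1% of all genes at that level), 7 had none in 1 IgG library and 10 CPM or more in the other (15.9%, against 16%), and 12 were at 10 CPM or more in both (27.3%, against 31.6%). Both His libraries lay above both IgG libraries in 55 of 90 genes (61.1%, against 37.7%) and below both in 5 (5.56%, against 5.7%). For Eif1ad3 the His libraries held 80.3 and 83.6 CPM and the IgG libraries 1.35 and 30.8 CPM.

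Trappc1, a core TRAPP subunit, was at 147 and 173 CPM in His A and B and had 0 reads in both IgG libraries. Against the floor of 3 reads in the shallower IgG library its His mean was at least 249-fold higher (adjusted p 0.00997 by limma). This and the other bounds written as at least a given fold cover counting error only. The IgG libraries differed by more than that: Ykt6 had 0 reads in IgG A and 186 CPM in IgG B, and Sec11a 257 CPM in IgG A and 0 in IgG B. Its core partner Trappc3 was at 112 and 38.3 CPM in His with no IgG read, and the lower of these was at least 59.7-fold higher than the floor (adjusted p 0.0132 by limma). Other TRAPP subunits behaved otherwise. Trappc10, of the TRAPPII complex, was at 158 and 198 CPM in His and at 217 and 1073 CPM in IgG (log2 difference -1.44, SE 0.95, adjusted p 0.372 by limma). The difference was -2.59 without IgG A and -0.29 without IgG B, and DESeq2 called it lower (adjusted p 0.0206). Its TRAPPII partner Trappc9 was at 119 and 48.4 CPM in His and at 1030 and 16.0 CPM in IgG. Trappc4 was at 134 and 105 CPM in His, at 137 CPM in IgG A and at 0 in IgG B. Of 15 TRAPP genes tested 5 were called higher and 10 were not called, a share near the 35.7% of all genes tested.

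Of the syntaxins, 8 of the 10 tested were called higher, against 35.7% of all genes tested, and 10 of the 15 listed had no IgG read, against 52.6% of all listed genes. Of the 8 called, 6 (Stx1a, Stx2, Stx4a, Stx6, Stx8 and Stx18) had no IgG read and so could only come out higher. Whether syntaxins differ from other genes was not tested. Stx6, of the trans-Golgi network, was at 78.0 and 119 CPM in His with 0 reads in both IgG libraries, at least 154-fold higher. Stx4a, of the plasma membrane, was at 11.5 and 14.7 CPM (at least 20.4-fold higher) and Stx1a at 8.49 and 11.5 CPM (at least 15.6-fold higher), also with no IgG read. For all 3 the adjusted p by limma was 0.00997. The 2 tested syntaxins that were not called had most of their IgG reads in library B: Stx5a was at 238 and 242 CPM in His, with 1 read in IgG A and 590 CPM in IgG B, and Stx12 at 68.9 and 65.0 CPM in His, 0 in IgG A and 78.2 CPM in IgG B.

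Among the other SNAREs, Vamp8, of endosomes and secretory granules, was at 108 and 103 CPM in His with 0 reads in both IgG libraries, at least 164-fold higher. Bet1 was at 19.5 and 35.4 CPM in His with none in IgG, at least 42.8-fold higher. Sec22b, an ER SNARE, was at 64.4 and 82.7 CPM in His, with 0 and 2 reads in IgG A and B. The adjusted p by limma was 0.00997 for Vamp8 and Sec22b and 0.01001 for Bet1. Gosr2, a Golgi SNARE, was recovered with both kinds of bead, at 77.5 and 90.7 CPM in His and at 137 and 131 CPM in IgG (log2 difference -0.67, SE 0.63, adjusted p 0.542 by limma). Ykt6 averaged 12.3 CPM in His and was at 0 in IgG A and 186 CPM in IgG B. Vamp1 had the same reads in every library as the listed gene E130112N10Rik, in both tables, so its values cannot be assigned to 1 of the pair.

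**Figure D3:**
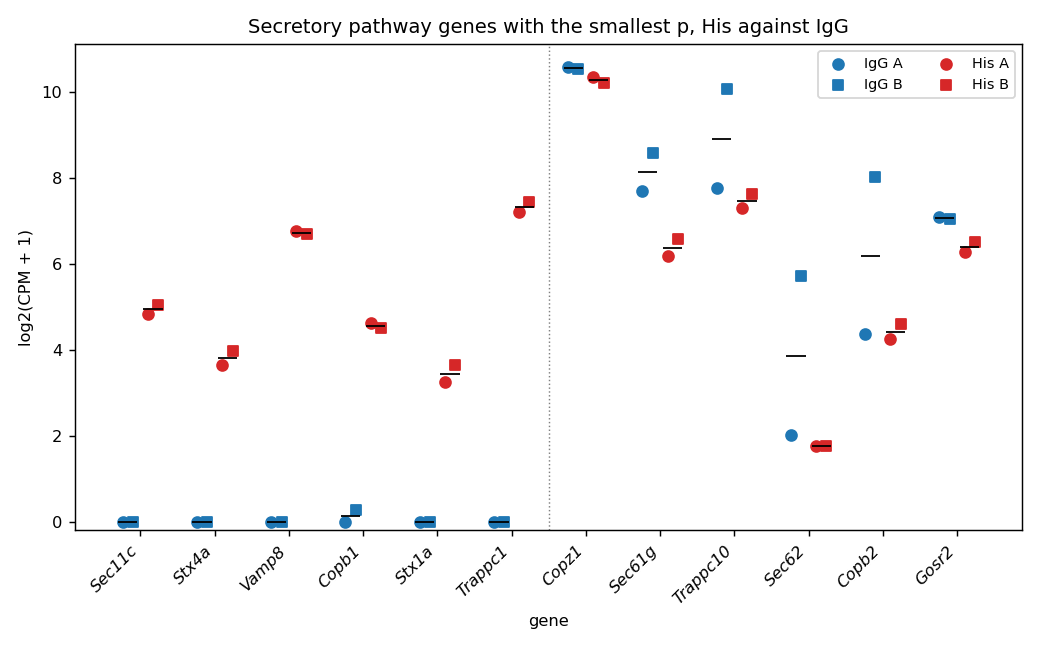
The vertical axis is log2(CPM + 1) in each of the 4 immunoprecipitation libraries (blue, IgG; red, His; circles, A; squares, B) for the 6 secretory pathway genes with the smallest p on each side, and black lines are group means. The 6 genes on the left, Sec11c to Trappc1, have 0 or, for Copb1, at most 1 read in an IgG library, and among the 6 on the right Trappc10, Sec62 and Copb2 have IgG A and B far apart.

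The coats differed among their own subunits. In COPI, Copb1 was at 23.8 and 21.7 CPM in His with 0 and 1 read in IgG A and B (log2 difference 4.43, SE 0.39, adjusted p 0.00997 by limma), and Cope at 78.2 and 52.9 CPM in His with 2 and 0 reads. Such fitted differences of genes with few or no IgG reads depend on the value of 1 CPM added before taking logs. Copz1, by contrast, was at 1310 and 1194 CPM in His and at 1548 and 1483 CPM in IgG (log2 difference -0.28, SE 0.09, adjusted p 0.101 by limma), so that both His libraries lay below both IgG libraries. Copb2 was at 18.1 and 23.4 CPM in His and at 19.6 and 261 CPM in IgG. Its log2 difference of -1.77 (adjusted p 0.533 by limma) was -3.61 without IgG A and 0.066 without IgG B. In COPII, Sec31a, of the outer cage, was at 235 and 200 CPM in His and at 20.9 and 19.5 CPM in IgG A and B. It was the 1 called gene at 10 CPM or more in both IgG libraries, with 10.8-fold more in the His mean (log2 difference 3.36, SE 0.75, adjusted p 0.0455 by limma). Sec13, the partner of Sec31a in that cage, was at 571 and 668 CPM in His and at 1191 and 148 CPM in IgG (adjusted p 0.795 by limma).

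Genes of translocation and cargo sorting were likewise divided. Sec11c was at 27.9 and 32.1 CPM in His with no IgG read, at least 46.7-fold higher (adjusted p 0.00997 by limma), and was the 1 gene called of 8 in translocation. Sec61g was at 71.5 and 95.2 CPM in His and at 208 and 384 CPM in IgG (log2 difference -1.76, SE 0.64, adjusted p 0.132 by limma), with both His libraries below both IgG libraries. It was called lower by DESeq2 (adjusted p 0.000136), and the log2 difference was -2.20 without IgG A and -1.32 without IgG B. Sec62, which assists import of proteins after their synthesis, was at 2.39 and 2.40 CPM in His and at 3.04 and 51.9 CPM in IgG. Its log2 difference of -2.11 (adjusted p 0.410 by limma) was -3.96 without IgG A and -0.25 without IgG B, and DESeq2 called it lower (adjusted p 0.0206). Of the p24 receptors 5 of 9 tested were called higher, and both counts stand beside 35.7% of all genes tested. Tmed10 was at 172 CPM in both His libraries with 2 and 4 reads in IgG A and B (adjusted p 0.0107 by limma), whereas Tmed2 was at 64.2 and 58.7 CPM in His and at 40.5 and 45.1 CPM in IgG, and Tmed9 at 200 and 135 CPM against 195 and 155 CPM. Sec14l1, outside these roles, was at 78.1 and 36.4 CPM in His with no IgG read, and the lower of these was at least 56.7-fold higher than the floor.

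**Figure D4:**
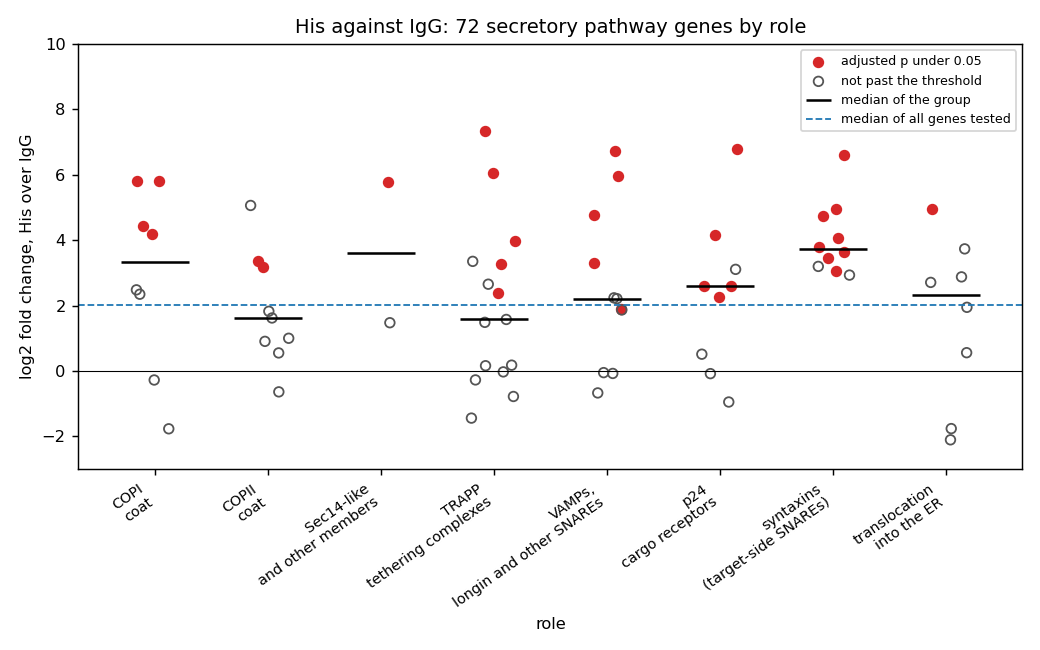
Each point is 1 of the 72 secretory pathway genes tested for His against IgG, grouped by role, with the log2 fold change on the vertical axis (filled red, adjusted p under 0.05 in limma; open, not past the threshold; horizontal position within a role is arbitrary). Black bars are role medians and the dashed line is the median of all genes tested, 2.01; syntaxins have the highest bar, at 3.73, and no called gene lies below 0.

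Of the 89 other pathway genes 77 were tested, of which 26 were higher in His in limma (33.8%, against 35.7% of all genes tested) and 0 lower (against 0.917%). DESeq2 called 28 higher and 4 lower, beside 5513 of all 11232 genes in either direction. With edgeR 0 of them passed (27 at an unadjusted p under 0.05), and with quantile normalization 0 (16 unadjusted). Without IgG A 37 passed as higher and 15 as lower (7229 of all genes), and without IgG B 45 and 10 (7301 of all genes), under the same assumption on the lone IgG library. Arfgap3, an activator of Arf GTPase hydrolysis, was at 11.4 and 9.73 CPM in His and the exocyst subunit Exoc8 at 33.7 and 27.5 CPM, both with no IgG read (adjusted p 0.00997 by limma). Arfgap1 was at 14.3 and 18.9 CPM in His and at 283 and 136 CPM in IgG, and the ER-Golgi protein Ergic1 at 70.1 and 34.4 CPM and at 232 and 299.9 CPM, neither of which passed (adjusted p 0.0609 and 0.0921 by limma).

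The levels in His were then set beside those in control embryos. The tables were normalized separately, so this is a description with no test. Within single families, transcripts differed widely in how their level in His compared with that in embryos; the pairs named next were chosen after their values were seen. Gosr1, a Golgi SNARE, averaged 50.4 CPM in controls and 1.02 CPM in His, whereas Gosr2 averaged 21.8 and 84.1 CPM. Sec61a2 averaged 74.8 CPM in controls and 10.8 CPM in His, whereas its paralogue Sec61a1 averaged 39.2 and 149 CPM. Tmed5 averaged 306 and 6.44 CPM, whereas Tmed9 averaged 24.6 and 167 CPM. In each pair 1 gene was several-fold lower in His than in embryos and the other several-fold higher. The IgG libraries held little of the first gene of each pair (0 reads in both for Gosr1, 0 and 2.14 CPM for Sec61a2, 0.675 and 0.427 CPM for Tmed5). Of the second, IgG A and B held 137 and 131 CPM for Gosr2, 197 and 1.07 CPM for Sec61a1, and 195 and 155 CPM for Tmed9.

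Other genes low in His relative to embryos were Sec62 (53.4 CPM in controls and 2.40 CPM in His), Sec63, its partner at the channel (70.4 and 5.20 CPM), Sec23ip (68.6 and 5.06 CPM), Trappc8 (89.7 and 8.92 CPM) and Sec23a (62.8 and 8.41 CPM). Trappc3 (2.91 and 75.0 CPM), Trappc10 (10.5 and 178 CPM), Sec13 (90.0 and 619 CPM) and Stx6 (14.4 and 98.7 CPM) were high in His. Of the 80 genes, 46 had a higher mean in His and 34 a higher mean in controls, on the log2(CPM + 1) scale, and every role held both kinds. Several genes called higher in His than in IgG were thus lower in His than in embryos, among them Tmed5 (adjusted p 0.0129 by limma against IgG), Trappc8 (0.00997) and Sec23a (0.0121). The 2-cell markers without Dppa3 summed to 91.6 and 104 CPM in His A and B, against 1980 and 2033 CPM in controls, and Dppa3 was at 4547 and 4343 CPM in His against 9088 and 6393 CPM in controls. The oocyte markers summed to 5377 to 5706 CPM in His, against 1484 to 1724 CPM in controls. In IgG A and B the sum was 2210 and 3061 CPM, also above controls. Most of the His sum was Gdf9, Bmp15 and Npm2. Zp2 was lower in His (47.6 and 80.8 CPM, against 175 and 154 CPM in controls), and Zp3 was at 122 and 131 CPM against 119 and 116 CPM.

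The same genes were also separated by the difference between the 2 knockdown libraries, which share no library with the His and control groups. Of the 46 genes at a higher level in His than in controls, 42 were lower in knockdown B than in knockdown A (91.3%, against 78.3% of all 6048 such genes). Of the 34 at a lower level in His, 15 were (44.1%, against 49.4% of all 7213). Gosr1 was at 39.2 and 63.7 CPM in knockdown A and B and Gosr2 at 30.8 and 10.3 CPM. Sec61a2 was at 74.4 and 99.98 CPM and Sec61a1 at 51.4 and 27.8 CPM. Tmed5 was at 180 and 868 CPM and Tmed9 at 24.9 and 13.5 CPM. In all 3 pairs the gene that was low in His was higher in knockdown B, and the other gene was lower in it. The pairs were chosen after their values were seen, so their agreement adds no support. Other genes had the opposite order. Trappc10, high in His, was at 15.4 and 19.9 CPM in knockdown A and B, and Trappc3l, low in His, at 73.2 and 31.5 CPM. Across the 80 genes Pearson's r between these log2 differences was -0.53 and Spearman's rho -0.47. Across all 13268 genes they were -0.40 and -0.40, so the relation was not particular to the secretory pathway. Where the control mean of log2(CPM + 1) was at least that of 10 CPM, r was -0.67 over 55 secretory pathway genes and -0.52 over 7202 of all genes. This cut differs from the one on mean CPM used above. Genes are not independent replicates, all points share the same few libraries, and no p is given. The oocyte marker Gdf9, a growth factor made by the oocyte, was at 1005 and 91.2 CPM in knockdown A and B, at 345 and 283 CPM in controls and at 2281 and 2280 CPM in His A and B. All 6 oocyte markers were lower in knockdown B than in knockdown A. Their part in this pattern was not tested.

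**Figure D5:**
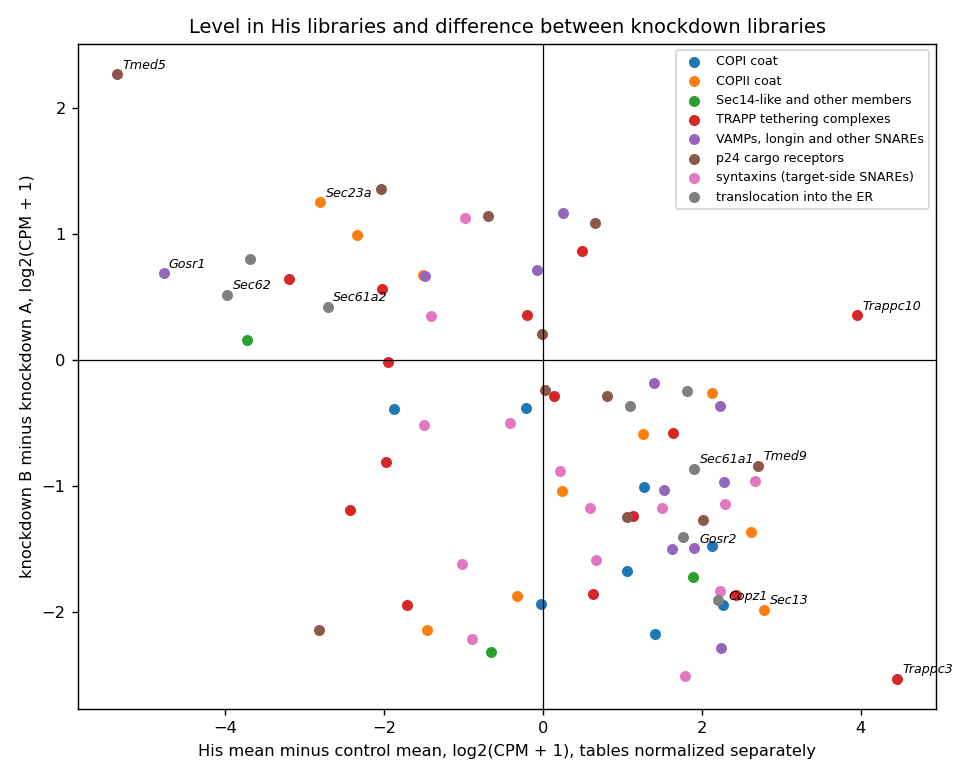
Each point is 1 of 80 secretory pathway genes, coloured by role; the horizontal axis is the His mean minus the control mean and the vertical axis is knockdown B minus knockdown A, both as differences of log2(CPM + 1), with the His and control values from tables normalized separately. Genes high in His such as Gosr2, Sec61a1, Tmed9 and Copz1 lie below 0 on the vertical axis, and Tmed5, Gosr1, Sec62 and Sec61a2, low in His, lie above it. Trappc10, high in His, also lies above 0.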

How the data were processed

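The authors deposited 2 tables of CPM (counts scaled to a common library total), 1 column per library. Per the submitters' processing notes, Trim Galore 0.6.7, FastQC, HISAT2 2.2.1, featureCounts 2.0.1, edgeR and the build GRCm39 were used, with no role or order given; annotation, strand setting and gene filter are not given in the sources used here. RNA was amplified with a Smart-seq2 v4 kit, per the labels' protocols, with no molecular identifiers named. In each library 100% of the CPM values were whole multiples of 1 read (tolerance 0.01 read), which gave the reads and totals.

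Of 12 labelled samples 8 were used; 4 value columns, whose names do not decide between the input and total RNA samples, were not used. Within each table, genes at 1 CPM or more in at least 2 libraries were tested on log2(CPM + 1), which understates the change of low genes, with limma 3.58.1 in R 4.3.3 (trend, two-sided, Benjamini-Hochberg over all genes tested, threshold 0.05). SE is limma's moderated one. Alternatives were pseudocounts of 0.1 and 5, other filters and scalings, the replicate letter as a block, edgeR 4.0.16 and DESeq2 1.42.0 on recovered reads, and leaving out each library. Named are the 3 genes with most reads in controls in each role, the 6 with the smallest p per direction and comparison, and, of the other pathway genes, 2 per direction; any others were chosen after their values were seen. The members and lists were chosen with earlier results of these data known. Of the 90 genes 89 matched a RefSeq entry (GRCm38.p6), used only for overlaps between genes; 14 overlapped another protein-coding gene. No coordinates are given because the builds differ.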

Additional observations from a re-analysis of the deposited data

How the results depend on the processing

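In knockdown against control, the 0 secretory pathway genes called (4 at an unadjusted p under 0.05) stayed 0 in every alternative except leaving out single libraries, which gave 0 to 7, and the 0 of all genes (726 unadjusted) became 2 with the replicate block, 15 with DESeq2 and 0 to 1250 leaving out libraries. The median difference (0.08) ranged from -0.25 to 0.50 leaving out libraries. Copg1 (-0.60) ranged from -1.43 to 0.24 leaving out libraries and was above 0 without knockdown B. In His against IgG, the 31 calls numbered 19 under the filter of mean 5 CPM, 0 with quantile normalization, 0 with edgeR and 31 to 52 leaving out libraries; all genes called (4111) became 2356, 0 (2339 at an unadjusted p under 0.05), 0 (4592 unadjusted) and 3946 to 7301 in the same settings. The median (2.59) was 4.29 and 1.30 with pseudocounts of 0.1 and 5, 2.22 with no filter, 2.79 under the filter of mean 5 CPM, 0.16 after quantile normalization, 3.21 in edgeR, 2.96 in DESeq2, and 2.46 to 3.08 leaving out libraries. Copb2 (-1.77) ranged from -3.61 to 0.066 leaving out libraries and was above 0 without IgG B. After quantile normalization it was -3.985. Median rescaling moved the median of all genes by -0.18 between His and IgG and left 29 of the 31 called. Without 1 library, its partner is assumed to vary like the other group. The cause was not tested.

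The replicate block used the letters A and B, which no source ties to a shared handling; deviations of same-letter libraries correlated at 0.15 in the knockdown table and -0.014 in the immunoprecipitation table. With it, 0 of the 80 and 30 of the 72 secretory pathway genes were called. With 2 libraries per group and totals of 4678563 to 8364126 reads, transcripts under 0.641 CPM were not detectable with certainty in IgG B.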
